A study of Mus musculus with 15 samples.

Results

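The annexins other than Anxa1 were taken as the 10 genes Anxa2, Anxa3, Anxa4, Anxa5, Anxa6, Anxa7, Anxa8, Anxa10, Anxa11 and Anxa13, found by symbol among the 78298 genes of the count files. All 10 passed the filter on low counts and were tested among 17560 genes. Organoids of the mouse small intestine had been profiled by poly-A RNA sequencing in 5 conditions, with 3 libraries per condition and 15 in all. The organoids were epithelial cultures grown from crypts of adult female mice of a C57BL/6J background. The study used wild-type mice and mice with the LGR5::DTR-EGFP reporter. The paper names a wild-type origin for its SOX9-Halo spheroids, while the sample titles give no genotype for any condition. Each carried a lentiviral transgene driven by the weak ubiquitous L30 promoter and was kept by puromycin selection.

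Halo-NLS, the control, expressed the HaloTag with a nuclear localization signal. SOX9-mEGFP_budding and SOX9-Halo_budding overexpressed SOX9, a transcription factor of crypt progenitor cells, fused to mEGFP or to the HaloTag, and still formed buds. SOX9-mEGFP_spheroid and SOX9-Halo_spheroid were the same lines after longer culture, when they grew as round spheroids. Per the paper's methods, stable SOX9 lines also received a second L30-driven lentivirus. It was H2B-mScarletI with neomycin resistance in the SOX9-mEGFP line and H2B-mEGFP with zeocin resistance in the SOX9-Halo line. The methods on sequencing do not say which cultures carried it. Morphology, time in culture and any second transgene therefore cannot be told apart in a comparison with spheroids. Each condition was 1 stable line, and its 3 libraries were replicate cultures of that line, so p-values cover the spread between such cultures and not between lines. In bulk RNA, fewer cells of a type and less RNA per cell also cannot be told apart.

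Annexins are proteins that bind acidic phospholipids of membranes when calcium rises, through a core of repeated helical domains. They take part in membrane repair, in the traffic of vesicles and in linking membranes to the actin cytoskeleton. Their short N-terminal ends differ and bind different partners, among them the small S100 proteins. In the intestine, Anxa13 belongs to the annexins of differentiated epithelium and Anxa2 lies beneath the cell membrane of most epithelial cells.

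Between 28062722 and 40559766 reads per library were counted on genes (median 33491297). Sox9, which holds transgene and endogenous reads together, measured 9.10 to 22.9 counts per 1000000 counted reads (CPM, scaled by TMM) in the Halo-NLS libraries and 193 to 705 in all SOX9 libraries except SOX9-Halo_budding replicate 1, which had 39.8. The summed level of 6 enterocyte markers averaged 6060 CPM in Halo-NLS, 3720 in SOX9-mEGFP_budding, 4430 in SOX9-Halo_budding, 247 in SOX9-mEGFP_spheroid and 3.08 in SOX9-Halo_spheroid, while 6 general epithelial markers summed to 4860 CPM or more in every library. Markers of fibroblasts (8 genes), immune cells (7), endothelium (5) and smooth muscle (4) each summed to at most 11.4 CPM in any library. Dcn and Lum, markers of fibroblasts, had no count in any spheroid library of either line. The immune markers summed to a mean of 3.49 CPM in Halo-NLS, 8.77 in SOX9-mEGFP_spheroid and 5.20 in SOX9-Halo_spheroid. Of the 3 immune markers that passed the filter, 2 were called higher than Halo-NLS in SOX9-mEGFP_spheroid (median log2 fold change 2.33), and in SOX9-Halo_spheroid 1 was called higher and 1 lower. Adgre1 had no count in SOX9-mEGFP_spheroid and Ptprc none in SOX9-Halo_spheroid, and the part of immune cells in the annexin results was not tested. Squamous markers (5 genes) summed to 0.0711 to 1.42 CPM in Halo-NLS and budding libraries and to 4.46 to 10.9 CPM in spheroids. Gastric markers (5 genes) summed to at most 0.749 CPM in Halo-NLS and budding libraries, to 3.01 to 8.50 CPM in SOX9-mEGFP_spheroid and to 1.15 to 1.80 CPM in SOX9-Halo_spheroid. Tuft cell markers (4 genes) summed to 1.92 to 18.1 CPM.

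The annexin genes lie apart on the chromosomes of mm39 (GRCm39) except for 3 on chromosome 14. These are Anxa7 (chr14:20505328-20530201, minus strand), Anxa11 (chr14:25842547-25887229, plus strand) and Anxa8 (chr14:33807936-33822528, plus strand). Anxa13 (chr15:58202792-58261129) and Anxa10 (chr8:62510076-62576184) are on minus strands. Counting ignored the strand, and exon bases shared with other counted genes made up 12.2% of Anxa4, 9.24% of Anxa11 and 6.46% of Anxa5, so part of the reads of these 3 genes cannot be told from their neighbours or was set aside as ambiguous. The share was 0 for Anxa7, Anxa8, Anxa10 and Anxa13 and at most 1.95% for the others.

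RefSeq promoter entries (GRCm38.p6) were found for 7 of the 10 annexins, but not for Anxa3, Anxa6 and Anxa13. The 250 bases before the gene start were searched on both strands for 5 short motifs. The motifs were GGAATG (the core bound by TEAD factors), ACAAT and ACAAAG (SOX factors), TGANTCA (AP-1) and TTTATNG (CDX factors). Promoters of Anxa2, Anxa8 and Anxa10 are shown because these genes differed in different ways between conditions, as described further on. Capitals mark TGANTCA.
Anxa2, chr9:69453433-69453682, plus strand: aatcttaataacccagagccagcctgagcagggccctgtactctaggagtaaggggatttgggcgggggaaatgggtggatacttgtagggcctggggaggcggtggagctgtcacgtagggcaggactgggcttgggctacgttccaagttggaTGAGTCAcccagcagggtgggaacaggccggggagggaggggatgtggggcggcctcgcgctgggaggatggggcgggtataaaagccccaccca
Anxa8, chr14:34085729-34085978, plus strand: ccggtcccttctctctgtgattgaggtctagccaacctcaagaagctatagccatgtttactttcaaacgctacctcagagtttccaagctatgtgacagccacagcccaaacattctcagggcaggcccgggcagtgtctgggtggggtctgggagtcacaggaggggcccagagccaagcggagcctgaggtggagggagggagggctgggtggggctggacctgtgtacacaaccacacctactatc
Anxa10, chr8:62123194-62123443, minus strand: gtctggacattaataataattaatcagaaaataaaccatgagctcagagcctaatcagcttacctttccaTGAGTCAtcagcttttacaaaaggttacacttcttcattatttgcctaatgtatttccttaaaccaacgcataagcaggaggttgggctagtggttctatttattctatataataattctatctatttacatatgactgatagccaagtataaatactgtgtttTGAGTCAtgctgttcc
TGANTCA occurred once in the Anxa2 promoter and 2 times in that of Anxa10, at 10 to 16 and 174 to 180 bases before the start. It was present in 6.75% of the 32851 promoter entries of the table. The windows of Anxa5 and Anxa8, both Anxa4 entries and the other Anxa7 entry than that named next held none of the 5 motifs. ACAAT was found in 1 of the 2 Anxa7 entries and in Anxa11, which also held ACAAAG, against 27.7% and 16.5% of all promoters. GGAATG and TTTATNG, present in 12.6% and 9.81% of all promoters, were in none of the 9 annexin entries. These matches describe letters in the windows and do not show binding.

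First, the levels of the 10 genes were compared within a condition, as CPM per kilobase of exon, since longer genes give more reads. The length was that of all annotated exons of a gene joined, from 1882 bases for Anxa8 to 8477 for Anxa5. Where this exceeds the length of the mRNA present, the level of a gene comes out too low. Shares between genes therefore depend on the annotation. In Halo-NLS organoids 3 genes made up most of the annexin mRNA on this scale. Anxa2 held 38.0% ± 3.25 (SD, n = 3) of the sum, Anxa13 24.9% ± 8.48 and Anxa4 21.1% ± 1.61, and Anxa11 followed with 10.1% ± 3.66. Anxa3, Anxa5, Anxa6, Anxa8 and Anxa10 each held 0.554% or less. In the budding SOX9 organoids the same 3 genes led, with Anxa13 at 31.6% ± 1.09, Anxa4 at 29.3% ± 2.39 and Anxa2 at 25.9% ± 4.78 in SOX9-mEGFP_budding, and at 29.9% ± 7.46, 28.5% ± 3.48 and 25.6% ± 6.65 in SOX9-Halo_budding, where the means lay within the spread of each other.

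Spheroids held another mixture of annexins, and the lines differed in it. In SOX9-mEGFP_spheroid the summed level was 780.5 ± 69.9 CPM per kilobase, against 420.2 ± 51.1 in Halo-NLS, and all 3 libraries exceeded the highest of the other conditions. In SOX9-Halo_spheroid the sum was 440.1 ± 55.6, within the range of the organoids. Anxa13 held 8.03% ± 3.79 of the sum in SOX9-mEGFP_spheroid and 0.0299% ± 0.0261 in SOX9-Halo_spheroid. Anxa2 still held the largest share, 42.0% ± 2.399 in SOX9-mEGFP_spheroid and 41.1% ± 0.735 in SOX9-Halo_spheroid. Anxa4 came next in both, with 24.4% ± 1.335 and 14.3% ± 2.214. In the SOX9-Halo_spheroid libraries Anxa3 held 12.0% ± 0.287, Anxa8 7.85% ± 2.45 and Anxa6 7.62% ± 0.460. As a share of all counts, the 10 genes took 0.189% ± 0.0174 in Halo-NLS, 0.439% ± 0.0330 in SOX9-mEGFP_spheroid and 0.258% ± 0.0267 in SOX9-Halo_spheroid.

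**Figure D1:**
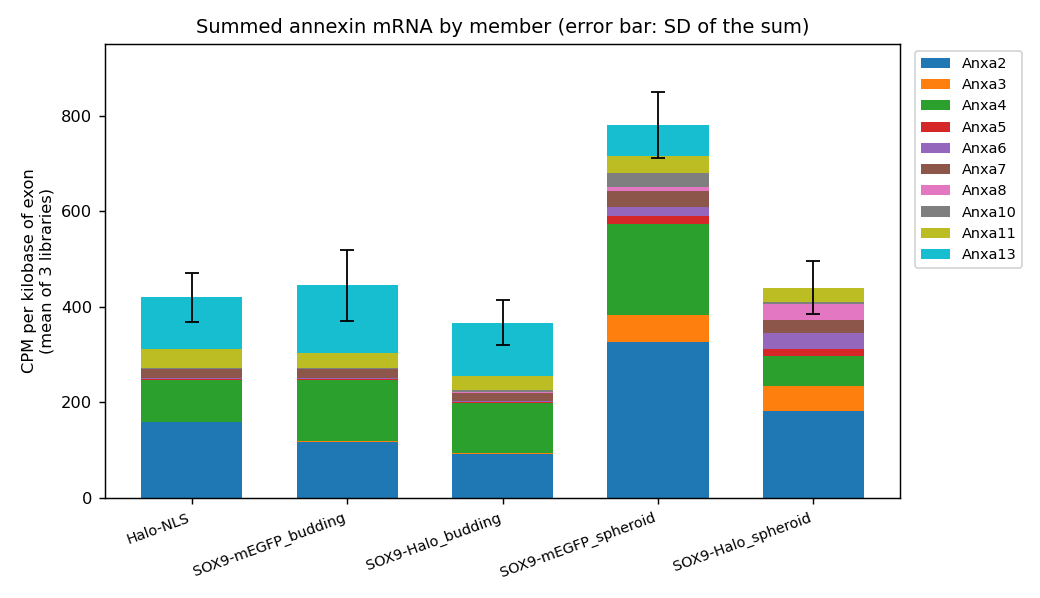
Stacked bars give the mean level of each annexin in CPM per kilobase of exon (n = 3 libraries per condition), and the error bar is the SD of the sum. Anxa2, Anxa4 and Anxa13 fill most of the bar in Halo-NLS and budding organoids, the bar is tallest in SOX9-mEGFP_spheroid (780.5), and the Anxa13 segment is too thin to see in SOX9-Halo_spheroid.

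Next, each spheroid line was compared with the Halo-NLS control. To be called, a gene needed an adjusted p no higher than 0.01, at least a 2-fold difference and normalized counts averaging 10 or more, from the edgeR quasi-likelihood test with Benjamini-Hochberg adjustment over all genes tested. In SOX9-mEGFP_spheroid 7 of the 10 annexins were called higher, while 15.3% of all genes were called higher, and 0 were called lower, against 12.1% of all genes. In SOX9-Halo_spheroid 4 annexins were called higher and 1 lower, against 13.6% and 15.3% of all genes. The median log2 fold change of the 10 genes was 1.97 in SOX9-mEGFP_spheroid and 0.92 in SOX9-Halo_spheroid. Over the 15718 tested genes with normalized counts averaging 10 or more it was 0.03 and 0.01. Both comparisons share the 3 Halo-NLS libraries.

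Anxa3, Anxa5, Anxa6 and Anxa8 were called higher in both spheroid lines. Anxa3, a phospholipid-binding annexin, measured 5.96, 4.38 and 5.92 CPM in the Halo-NLS libraries, 317, 396 and 329 in SOX9-mEGFP_spheroid and 381, 313 and 288 in SOX9-Halo_spheroid. Every spheroid library thus lay far above every Halo-NLS library. The log2 fold change against Halo-NLS was 6.00 ± 0.40 (SE; adjusted p = 6.2e-08) in SOX9-mEGFP_spheroid and 5.92 ± 0.40 (adjusted p = 2.6e-08) in SOX9-Halo_spheroid, that is 64.1-fold and 60.4-fold.

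Anxa8, an annexin best known from stratified and placental epithelium, was almost silent in Halo-NLS, with 0.389, 0.376 and 0.862 CPM (10 to 23 reads per library). It reached 15.0, 18.4 and 14.8 CPM in SOX9-mEGFP_spheroid and 49.3, 65.3 and 75.4 in SOX9-Halo_spheroid, so the SOX9-Halo_spheroid libraries formed the top group with no overlap. The log2 fold changes against Halo-NLS were 4.88 ± 0.51 and 6.86 ± 0.55 (adjusted p = 3.1e-06 and 1.2e-07). The squamous markers, which were higher in spheroids as well, summed to at most 10.9 CPM, and their part in the Anxa8 result was not tested.

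Anxa6, a large annexin with a duplicated core, measured 7.24, 9.75 and 10.5 CPM in Halo-NLS, 119, 120 and 148 in SOX9-mEGFP_spheroid and 242, 222 and 214 in SOX9-Halo_spheroid. It rose by 3.82 ± 0.21 and 4.63 ± 0.22 on the log2 scale (adjusted p = 1.1e-08 and 1.5e-09). Anxa5, whose protein binds phosphatidylserine and is widely used to stain dying cells, measured 17.8, 17.0 and 23.3 CPM in Halo-NLS, 139, 137 and 135 in SOX9-mEGFP_spheroid and 148, 111 and 107 in SOX9-Halo_spheroid. It rose by 2.82 ± 0.20 and 2.65 ± 0.19 (adjusted p = 8.6e-08 and 5.7e-08).

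Anxa10, Anxa4 and Anxa2 were called higher than Halo-NLS in SOX9-mEGFP_spheroid alone. Anxa10, an annexin of gastric epithelium, measured 4.79, 2.77 and 4.61 CPM in Halo-NLS and 63.8, 73.1 and 53.6 in SOX9-mEGFP_spheroid, a rise of 3.97 ± 0.46 (adjusted p = 9.0e-06). In SOX9-Halo_spheroid it measured 13.4, 8.65 and 7.30 CPM, above all Halo-NLS libraries, with a log2 fold change of 1.27 ± 0.43 and an adjusted p of 0.023. That value passed the threshold without SOX9-Halo_budding replicate 3 (1.31, adjusted p = 0.0036) or replicate 2 (1.28, adjusted p = 0.0095) in the fit, and without the filter on low counts (1.34, adjusted p = 3.0e-04). Of the 3 gastric markers tested, 2 were called higher than Halo-NLS in SOX9-mEGFP_spheroid and 1 in SOX9-Halo_spheroid, where Anxa10 was not called. The part of gastric markers in the Anxa10 result was not tested.

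Anxa4, an annexin of epithelial cells, rose from 572, 533 and 529 CPM in Halo-NLS to 1326, 1199 and 1021 in SOX9-mEGFP_spheroid (1.12 ± 0.20, adjusted p = 4.5e-04). In SOX9-Halo_spheroid it measured 523, 347 and 311 CPM, all below Halo-NLS, with a log2 fold change of -0.47 ± 0.20 and an adjusted p of 0.068. Anxa2, a partner of S100A10 at the cell membrane, rose from 831, 837 and 727 CPM to 1644, 1726 and 1564 (1.04 ± 0.25, adjusted p = 0.0030). Its fold change lay just past the limit of 2, and the call was lost without Halo-NLS replicate 3 (0.98, adjusted p = 0.014), SOX9-mEGFP_spheroid replicate 2 (0.99, adjusted p = 0.013) or SOX9-mEGFP_budding replicate 3 (0.99). In SOX9-Halo_spheroid Anxa2 measured 1061, 863 and 811 CPM, overlapping Halo-NLS (0.19 ± 0.24, adjusted p = 0.54).

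Anxa13 was called lower, and only in SOX9-Halo_spheroid among the comparisons with Halo-NLS. It measured 576, 291 and 255 CPM in the control and 0.282, 0.197 and 0.832 CPM in SOX9-Halo_spheroid, where 7 to 31 reads per library remained. The log2 fold change was -9.70 ± 0.69 (adjusted p = 4.3e-08), an 831-fold lower level. In SOX9-mEGFP_spheroid the 3 libraries held 332, 242 and 98.2 CPM, overlapping the control (-0.74 ± 0.46, adjusted p = 0.19). In SOX9-Halo_spheroid all 6 enterocyte markers were called lower than Halo-NLS as well (median log2 fold change -10.81). They were also all called lower in SOX9-mEGFP_spheroid (median -5.20), where Anxa13 was not called. Their part in the Anxa13 result was not tested.

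The other members moved less. Anxa7, an annexin known for membrane fusion, lay above all Halo-NLS libraries in both spheroid lines, at 199 to 248 CPM in SOX9-mEGFP_spheroid and 156 to 203 in SOX9-Halo_spheroid against 107 to 138. Its log2 fold changes of 0.88 ± 0.18 (adjusted p = 0.0010) and 0.57 ± 0.18 (adjusted p = 0.016) were under the limit on fold change, the second above that on p as well. Anxa11, which binds RNA granules and lysosomes, had overlapping libraries in all conditions that neighbour each other in its order of levels. Its values were 190 to 400 CPM over the 15 libraries, and its log2 fold changes against Halo-NLS were -0.15 ± 0.21 and -0.49 ± 0.21 (adjusted p = 0.56 and 0.074).

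**Figure D2:**
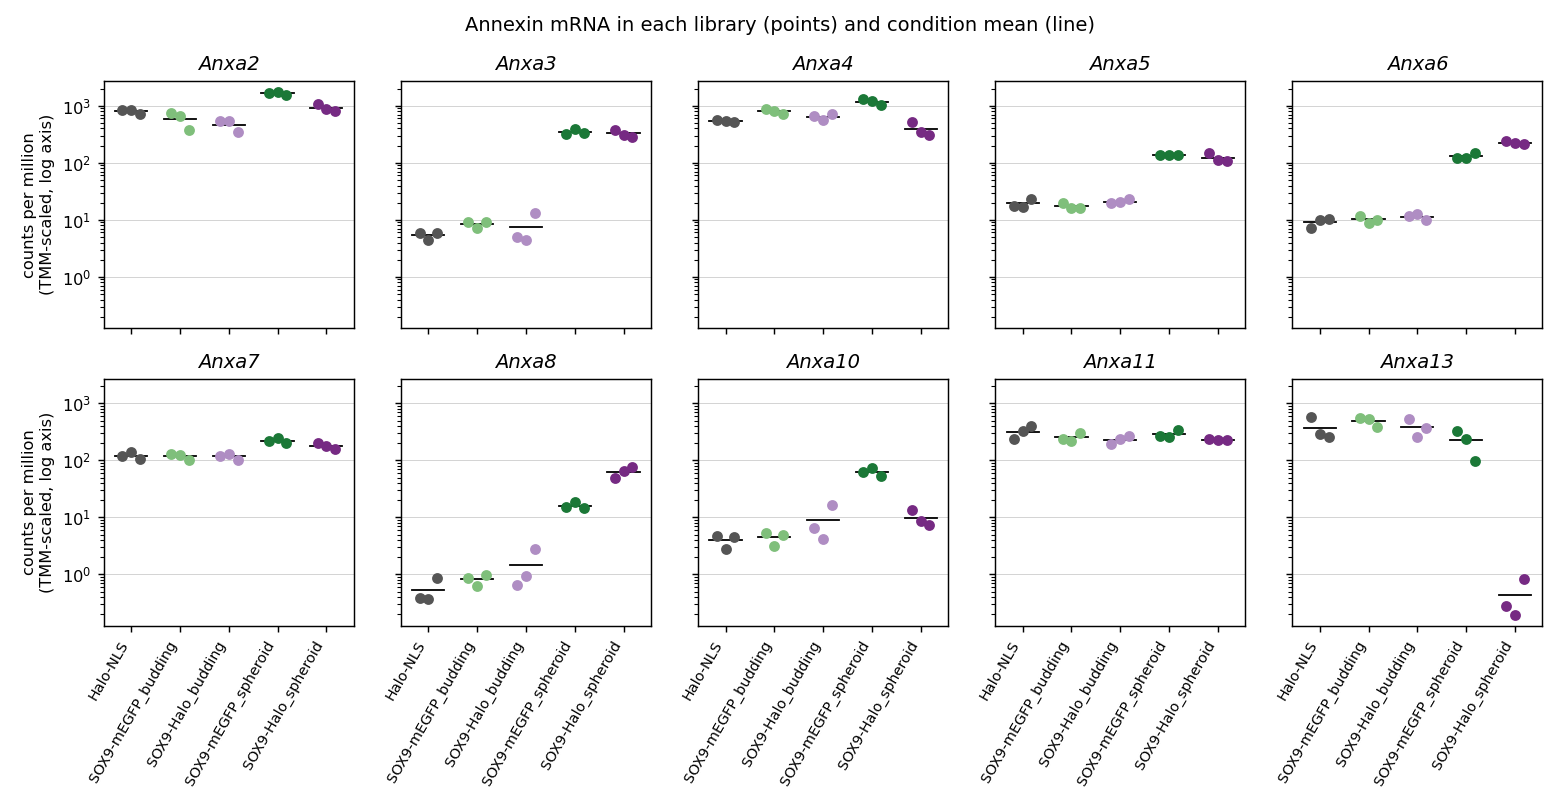
Each point is 1 library, in TMM-scaled CPM on a log axis, and the line is the mean of the 3 libraries of a condition. Anxa3, Anxa5, Anxa6 and Anxa8 step up in both spheroid lines, Anxa10 is highest in SOX9-mEGFP_spheroid, and Anxa13 is under 1 CPM in the 3 SOX9-Halo_spheroid libraries.

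To ask whether SOX9 overexpression changed annexins before the change in morphology, budding lines were compared with Halo-NLS. For SOX9-Halo_budding the question is limited by replicate 1. Its Sox9 level of 39.8 CPM, against 314 and 204 in replicates 2 and 3, was little above the Halo-NLS libraries (up to 22.9). With replicate 1 left out, 0 annexins were called in SOX9-Halo_budding against Halo-NLS. In SOX9-mEGFP_budding 0 of the 10 annexins were called, against 2.76% of all genes, and 1 (Anxa4) had an unadjusted p under 0.05. In SOX9-Halo_budding 0 were called, against 3.75% of all genes, and 4 had an unadjusted p under 0.05, namely Anxa2, Anxa8, Anxa10 and Anxa11. Between both budding lines 0 were called, against 0.456% of all genes, and Anxa10 alone had an unadjusted p under 0.05. These shares of all genes belong to the calls. The share of all genes with an unadjusted p under 0.05 is not reported here, so the counts of such annexins cannot be read as many or few. DESeq2 also called 0 in each of these 3 comparisons. Log2 fold changes against Halo-NLS ran from -0.43 to 0.64 in SOX9-mEGFP_budding and from -0.77 to 1.43 in SOX9-Halo_budding.

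The highest of these values came with 1 library. SOX9-Halo_budding replicate 3 held 13.3 CPM of Anxa3, 2.82 of Anxa8 and 16.2 of Anxa10, while replicates 1 and 2 held 4.98 and 4.44, 0.640 and 0.957, and 6.42 and 4.20. The 3 genes that were high in this library were among those that rose in spheroids, whereas its Anxa5 (22.8 CPM) and Anxa6 (9.94 CPM) were near those of the other budding libraries. For Anxa8 the log2 fold change against Halo-NLS was 1.43 ± 0.49 (adjusted p = 0.053) with this library and 0.58 (adjusted p = 0.34) without it. For Anxa10 it was 1.14 ± 0.42 (adjusted p = 0.070) and 0.41 (adjusted p = 0.46). For Anxa3 it was 0.48 ± 0.33 (adjusted p = 0.30) and -0.18 (adjusted p = 0.61), a change of sign. Without the filter on low counts, Anxa8 and Anxa10 were called in SOX9-Halo_budding (1.49 and 1.20, adjusted p = 0.0019 and 0.0045). Anxa2 was lower in all 3 SOX9-Halo_budding libraries (534, 532 and 341 CPM) than in any Halo-NLS library, with a log2 fold change of -0.77 ± 0.24 and an adjusted p of 0.042, which missed the threshold.

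To follow the change from budding to spheroid, each line was then compared with itself. In the SOX9-mEGFP line 6 annexins were called higher in spheroids, against 8.55% of all genes, and 0 lower, against 7.88%. In the SOX9-Halo line 4 were called higher and 1 lower, against 10.5% and 14.7% of all genes. The median log2 fold change of the annexins was 2.23 in the SOX9-mEGFP line and 0.78 in the SOX9-Halo line. Over the tested genes with normalized counts averaging 10 or more it was -0.03 and -0.05. These comparisons share no library with each other.

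Anxa3, Anxa5, Anxa6 and Anxa8 rose in both lines. From budding to spheroid, Anxa3 rose by 5.36 ± 0.39 in the SOX9-mEGFP line and by 5.43 ± 0.39 in the SOX9-Halo line on the log2 scale (adjusted p = 2.0e-07 and 5.3e-08). Anxa8 rose by 4.27 ± 0.48 and 5.43 ± 0.50 (adjusted p = 1.1e-05 and 5.3e-07). Anxa6 rose by 3.67 ± 0.21 and 4.32 ± 0.21 (adjusted p = 2.2e-08 and 2.2e-09), and Anxa5 by 2.98 ± 0.20 and 2.54 ± 0.19 (adjusted p = 9.2e-08 and 9.5e-08). Anxa2 rose in the SOX9-mEGFP line (1.48 ± 0.25, adjusted p = 3.5e-04), while its change of 0.96 ± 0.25 in the SOX9-Halo line (adjusted p = 0.0054) was under the limit on fold change. Without SOX9-Halo_budding replicate 2 the latter was 1.06 and passed. For Anxa7 the log2 fold changes were 0.91 ± 0.18 and 0.61 ± 0.18 (adjusted p = 0.0012 and 0.013), and for Anxa11 they were 0.19 ± 0.21 and -0.02 ± 0.21, with neither called.

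Whether the lines differed in this change was tested as an interaction, the change in the SOX9-Halo line minus that in the SOX9-mEGFP line. It was called for 3 annexins, all lower, against 5.58% of all genes called lower. Anxa13 had an interaction of -8.63 ± 0.78 (adjusted p = 3.3e-06). From budding to spheroid it fell by 9.76 ± 0.69 in the SOX9-Halo line, from 541, 253 and 377 CPM to under 1 CPM. In the SOX9-mEGFP line it went from 553, 531 and 387 CPM to 332, 242 and 98.2 CPM, with no overlap, a log2 fold change of -1.13 ± 0.47 and an adjusted p of 0.088. Without the filter on low counts this value was called (adjusted p = 2.7e-04).

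Anxa10 had an interaction of -3.69 ± 0.60 (adjusted p = 6.7e-04). It rose by 3.82 ± 0.46 in the SOX9-mEGFP line, from 5.43, 3.09 and 4.94 CPM to 63.8, 73.1 and 53.6. In the SOX9-Halo line the change was 0.13 ± 0.41 (adjusted p = 0.84), since the highest budding library (16.2 CPM) exceeded all spheroid libraries. Without that library it was 0.89 (adjusted p = 0.061), and the interaction was then -2.94 (adjusted p = 6.9e-04). Anxa4 had an interaction of -1.27 ± 0.29 (adjusted p = 0.0070). It measured 872, 809 and 720 CPM in SOX9-mEGFP_budding and 659, 565 and 711 in SOX9-Halo_budding, and its log2 fold changes to spheroid were 0.56 ± 0.20 (adjusted p = 0.049) and -0.71 ± 0.20 (adjusted p = 0.010), so neither line alone passed. The Anxa4 interaction was lost in 9 of 15 fits that left out 1 library, with values between -1.53 and -1.12 and adjusted p up to 0.027. For the other 7 annexins the interaction ran from -0.52 to 1.17 and was not called. For Anxa8 it was 1.17 ± 0.62 (adjusted p = 0.28), and 2.06 (adjusted p = 0.0085) without SOX9-Halo_budding replicate 3.

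**Figure D3:**
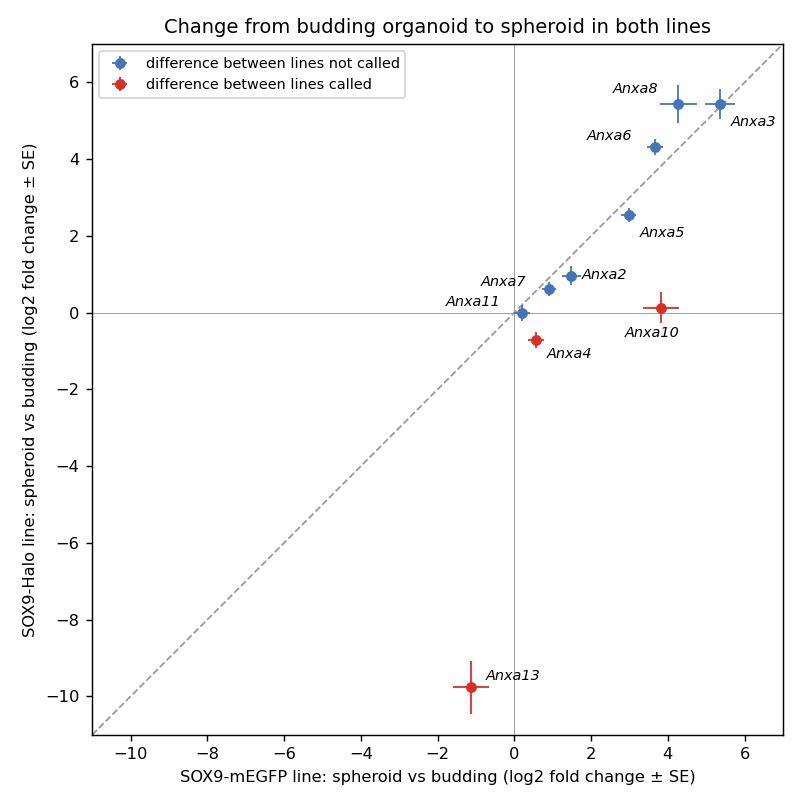
Log2 fold change from budding organoid to spheroid in the SOX9-mEGFP line (horizontal axis) and the SOX9-Halo line (vertical axis), each ± SE from 3 libraries against 3, with the dashed line marking equal change. Anxa3, Anxa5, Anxa6 and Anxa8 lie at the upper right with no called difference between the lines, Anxa8 above the dashed line (interaction 1.17). Anxa13, Anxa10 and Anxa4 (red) lie below the dashed line with a called difference, Anxa4 with an interaction of -1.27.

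The spheroid lines were also compared directly. In SOX9-Halo_spheroid 1 annexin was called higher than in SOX9-mEGFP_spheroid and 3 lower, against 3.59% and 9.58% of all genes. Anxa8 was higher by 1.98 ± 0.42 on the log2 scale (adjusted p = 0.0028), a 3.94-fold level, and this call was lost in 5 of the 15 fits without 1 library, with values of 1.82 to 2.13 and adjusted p up to 0.017. Each of the 3 SOX9-mEGFP_spheroid libraries and replicates 2 and 3 of SOX9-Halo_spheroid had this effect when left out. Anxa13, Anxa10 and Anxa4 were lower, with log2 fold changes of -8.96 ± 0.68, -2.70 ± 0.44 and -1.59 ± 0.21 (adjusted p = 2.3e-07, 2.9e-04 and 4.1e-05).

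Anxa6 was higher in every SOX9-Halo_spheroid library than in any of SOX9-mEGFP_spheroid, but its difference of 0.81 ± 0.19 (adjusted p = 0.0048) was under the limit on fold change. Anxa2 was lower in all SOX9-Halo_spheroid libraries, with -0.85 ± 0.25 and an adjusted p of 0.019. For Anxa3 and Anxa5 the differences were -0.09 (95% interval -0.77 to 0.60) and -0.17 (95% interval -0.56 to 0.22), and for Anxa7 and Anxa11 -0.32 (-0.69 to 0.06) and -0.33 (-0.79 to 0.13). Medians of whole chromosomes were taken over tested genes with normalized counts averaging 10 or more. Between the spheroid lines the median log2 fold change on chromosome 8, which carries Anxa10, was 0.49. On chromosome 15, which carries Anxa13, it was -0.41. The median over the chromosomes of the other 8 annexins ran from -0.16 to 0.01. For chromosome 15 the median was already -0.49 between the budding lines (SOX9-Halo_budding against SOX9-mEGFP_budding), and against Halo-NLS it was 0.38 in SOX9-mEGFP_budding and 0.35 in SOX9-mEGFP_spheroid. For chromosome 8 it was 0.33 in SOX9-Halo_spheroid against Halo-NLS and 0.44 against SOX9-Halo_budding, and between -0.19 and 0.04 in the comparisons without SOX9-Halo_spheroid. Gene copy number was not measured, and the part of whole chromosomes in the Anxa10 and Anxa13 results was not tested.

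**Figure D4:**
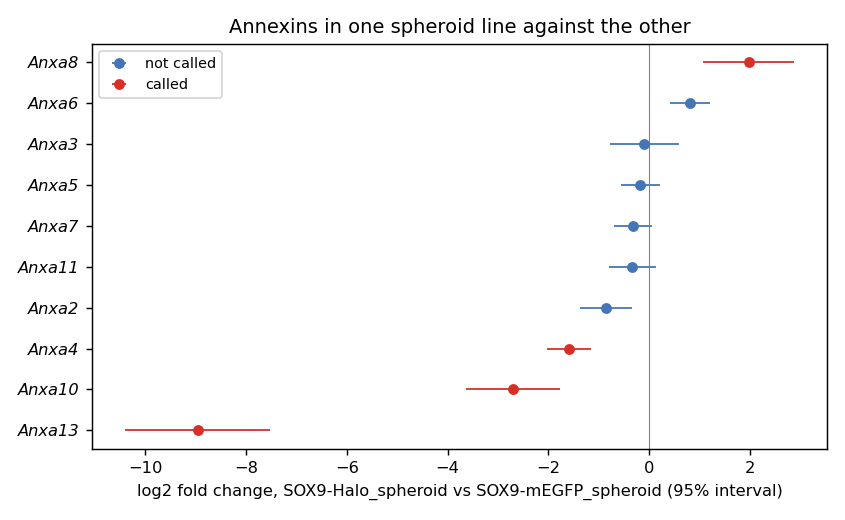
Log2 fold change of each annexin in SOX9-Halo_spheroid against SOX9-mEGFP_spheroid with its 95% interval (3 libraries each). Anxa8 is called higher and Anxa4, Anxa10 and Anxa13 lower (red), while the intervals of Anxa3, Anxa5, Anxa7 and Anxa11 include 0.

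The order of levels over the 5 conditions differed between the annexins. For Anxa3 and Anxa5, both spheroid lines stood above the 3 other conditions, and neighbours within each of these 2 sets overlapped. For Anxa6 and Anxa8 the order was the same except that SOX9-Halo_spheroid stood above SOX9-mEGFP_spheroid without overlap. Over the 15 libraries, the log2 levels of Anxa3, Anxa5, Anxa6 and Anxa8 correlated with each other at r between 0.94 and 0.99, as a description of libraries that fall into spheroids and others. Anxa13 correlated at -0.65 to -0.81 with these 4 genes and at 0.64 with Anxa4. From the lowest to the highest condition mean, Anxa13 spanned 10.2 on the log2 scale, Anxa8 6.79 and Anxa3 5.99, against 0.45 for Anxa11.

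For these 3 genes with the widest span, the genes of most similar pattern were sought among 11054 genes over the 15 libraries. Anxa13 was closest to Casp1 (r = 0.997), the protease of inflammasomes, to Clrn3 (0.996) and to Cdh17 (0.993), the liver-intestine cadherin. Their mean levels went from 51.7, 128 and 720 CPM in Halo-NLS to 0.0659, 0.216 and 0.911 CPM in SOX9-Halo_spheroid. Anxa8 was closest to Tubb6 (0.994), a beta tubulin, Cryab (0.988), a small heat shock protein, and Sgcb (0.987), a sarcoglycan. Anxa3 was closest to Cav2 (0.995), a caveolin, Arhgap40 (0.993) and Ano1 (0.992), a calcium-activated chloride channel. Cav2 went from 0.187 CPM in Halo-NLS to 75.5 and 63.6 CPM in the spheroid lines.

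Genes that work with annexins were examined as lists. Of 7 annexin binding partners, 6 were tested. In each of the 4 comparisons of a spheroid line with Halo-NLS or with its own budding culture, 3 were called higher, and Sri, sorcin, was also called lower in both comparisons of SOX9-Halo_spheroid. The 3 were S100a6, S100a11 and Ahnak. S100a11, a partner of Anxa1 and Anxa2, rose by 4.23 ± 0.43 and 4.54 ± 0.44 against Halo-NLS in SOX9-mEGFP_spheroid and SOX9-Halo_spheroid. Ahnak, a giant scaffold that binds the complex of Anxa2 and S100a10, rose by 3.49 ± 0.48 and 2.83 ± 0.47. S100a10 itself had log2 fold changes of 0.52 ± 0.26 and -0.12 ± 0.26 (adjusted p = 0.11 and 0.74). S100a6, which binds several annexins, was lower than Halo-NLS in both budding lines (-4.41 ± 0.27 in SOX9-mEGFP_budding and -1.33 ± 0.24 in SOX9-Halo_budding) and higher in both spheroid lines (3.60 ± 0.26 and 2.69 ± 0.25). The list's median log2 fold change against Halo-NLS was 2.00 in SOX9-mEGFP_spheroid and 1.29 in SOX9-Halo_spheroid.

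Of 14 genes of plasma membrane repair, 13 were tested, and 5 were called higher and 1 lower in SOX9-mEGFP_spheroid against Halo-NLS, and 4 higher and 0 lower in SOX9-Halo_spheroid. Myof, myoferlin, rose by 7.63 ± 0.33 and 8.88 ± 0.34, Ehd2, a membrane-shaping ATPase of caveolae, by 7.33 ± 0.62 and 7.90 ± 0.63, and Capn2, a calcium-activated protease, by 4.11 ± 0.26 and 3.62 ± 0.26. The gene called lower was Ehd1, a membrane-shaping ATPase of endosome recycling, with -2.10 ± 0.22. In each budding line 1 gene was called higher than Halo-NLS and 1 lower. Of all genes, 1.99% were called higher and 0.763% lower in SOX9-mEGFP_budding, and 2.49% and 1.26% in SOX9-Halo_budding. Myof rose by 1.68 ± 0.27 in SOX9-mEGFP_budding and 2.23 ± 0.27 in SOX9-Halo_budding, and Ehd1 fell, with -1.25 ± 0.21 and -1.61 ± 0.22. The list's medians against Halo-NLS were 0.42 in SOX9-mEGFP_spheroid and 0.61 in SOX9-Halo_spheroid.

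Of 9 genes of the plasminogen system, whose proteases act at cell surfaces where Anxa2 can bind plasminogen, 7 were tested. In SOX9-mEGFP_spheroid 5 were called higher and 1 lower against Halo-NLS, and in SOX9-Halo_spheroid 3 higher and 1 lower. Plau, urokinase, rose by 6.42 ± 0.84 and 9.54 ± 0.85, and Plaur, its receptor, by 3.44 ± 0.31 in each. Plgrkt, a plasminogen receptor, fell, with log2 fold changes of -1.89 ± 0.24 and -1.60 ± 0.24. The list's medians were 3.44 and 1.66.

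Of 22 other proteins that bind membranes in a calcium-dependent way, or belong to families of such proteins (copines, synaptotagmins and relatives), 17 were tested. In SOX9-mEGFP_spheroid 10 were called higher and 3 lower than in Halo-NLS, and in SOX9-Halo_spheroid 6 higher and 4 lower, with medians of 1.59 and 1.06. Cpne8, a copine, rose by 9.23 ± 0.56 and 9.40 ± 0.57, and Syt8 by 5.78 ± 0.51 and 6.11 ± 0.52. Syt7, a calcium sensor of lysosome exocytosis, fell, with -1.93 ± 0.42 and -7.33 ± 0.64. Sytl2 rose by 2.67 ± 0.39 in SOX9-mEGFP_spheroid and fell by 3.82 ± 0.46 in SOX9-Halo_spheroid, with an interaction between the lines of -6.07 ± 0.60 (adjusted p = 7.8e-06). These lists were chosen with results of the same data known, so their counts stand as a description beside the shares of all genes given above.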

How the data were processed

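Poly-A RNA libraries of 15 organoid cultures, 3 in each of 5 conditions, were analysed, with conditions taken from the sample titles. Per the labels and methods, the authors trimmed reads with cutadapt 4.5, aligned them with STAR to mm39, kept unique alignments and deposited counts per gene from HTSeq 2.0.2 (union mode, no strand). These deposited counts are whole numbers and are not normalized. The authors' tables of normalized counts and of their DESeq2 comparisons (mean levels, fold changes, p-values) were not used. 0 columns of values remained unassigned.

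Counts were tested with edgeR 4.0.16 (quasi-likelihood, TMM scaling, filterByExpr, 1 coefficient per condition over 15 libraries, Benjamini-Hochberg adjustment over 17560 genes) in R 4.3.3. A gene was called with an adjusted p no higher than 0.01, a difference of 2-fold or more and normalized counts averaging 10 or more. CPM are TMM-scaled. Intervals are 95% and come from the fit. Alternatives were RLE scaling, library sizes alone, no filter, DESeq2 1.42.0, only the libraries compared, a replicate block, no minimum fold, and each library left out. Between SOX9-Halo_budding and SOX9-Halo_spheroid same-numbered libraries deviated together for all 3 numbers (r = 0.403, 0.234 and 0.344 over 11054 genes). In every other pair of conditions the lowest of the 3 values was 0.072 or less. Single numbers correlated more strongly elsewhere. Between Halo-NLS and SOX9-Halo_budding r was 0.470, 0.817 and -0.055, and between the budding lines it was 0.040, 0.358 and 0.740. Shared handling of same-numbered libraries is therefore not excluded in those comparisons.

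Exon lengths came from GENCODE vM39, which held 78168 of the 78298 gene identifiers. Promoters came from RefSeq. All 10 members are named, with list genes that passed in a comparison with Halo-NLS or within a line, the 3 genes most correlated with the 3 members of widest span, and Sox9. S100a10 and the markers named were chosen after their values were seen. The members and lists were chosen with earlier results of these data known. Values of 1 list gene are not reported here.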

Additional observations from a re-analysis of the deposited data

Results flagged for a closer look

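The change from budding organoid to spheroid differed between the SOX9-Halo line and the SOX9-mEGFP line for 3 annexins by the test of the interaction (edgeR quasi-likelihood test, adjusted over all genes tested). The difference was -8.63 on the log2 scale for Anxa13, -3.69 for Anxa10 and -1.27 for Anxa4. Anxa13 and Anxa10 kept the call in all alternatives, while Anxa4 lost it in 9 of 15 fits without 1 library. Each line was 1 culture history, possibly with its own second transgene, so line, passage and transgene cannot be told apart here.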

How the results depend on the processing

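Of 90 values (10 annexins in 9 comparisons), 30 were called, and 27 of these kept call and direction under all alternatives. The exceptions were Anxa2 in SOX9-mEGFP_spheroid against Halo-NLS (0.99 with RLE scaling and with only the libraries compared), the Anxa4 interaction (-1.24, adjusted p = 0.011, with only the libraries compared) and Anxa8 between the spheroid lines, whose losses on leaving out a library are given above. Without the filter on low counts, the number of annexins called in SOX9-Halo_budding against Halo-NLS went from 0 to 2. Of 199 counts of annexins called under an alternative, 198 stayed within 1.5 times the main count. A count that stayed at 0 passed this limit, and so did fits that lost the Anxa4 interaction. The limit therefore says little about counts this small. The replicate block changed no call, with 5 annexins called from budding to spheroid in the SOX9-Halo line in the block fits of 15 and of 6 libraries. Anxa7 was called in SOX9-mEGFP_spheroid against Halo-NLS with library sizes alone (1.14) or without the limit on fold change. Library sizes alone moved the median of genes with normalized counts averaging 10 or more by 0.23 to 0.30 against Halo-NLS. Changes of sign (44 values, 15 of the 90) involved uncalled values with a main log2 fold change of at most 0.81. The Anxa8 values of the controls rest on 10 to 23 reads per library and those of Anxa13 in SOX9-Halo_spheroid on 7 to 31, so their folds are less precise. The cause of lost calls was not tested.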
